A study of Mus musculus with 4 samples.

Results

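RNA of 31 genes of the synaptic vesicle release machinery was compared in the mouse globus pallidus after cocaine place conditioning. The genes were taken by symbol: every array feature listed with exactly one of the 31 symbols was used, and the features of a symbol were averaged. Of the 31, 30 had at least 1 listed feature, 65 features in all, among 18796 genes tested. Sv2c, a vesicle glycoprotein of the Sv2 family, had no listed feature and is not analysed here.

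The globus pallidus is a basal ganglia nucleus that receives GABA input from the striatum. Cocaine mice were male C57BL6 animals given 15 mg/kg cocaine on days 2, 3 and 4 of a conditioned place preference protocol, a test of how long an animal stays in a drug-paired compartment, and they had a high preference score. Saline mice were males of the same background that received saline on the same days. RNA of 1 cocaine animal and 1 saline animal was hybridised together on each of 4 two-colour Agilent arrays, which gives 4 mouse pairs, with cocaine RNA in Cy5 in pairs 1 and 3 and in Cy3 in pairs 2 and 4. Values are log2 ratios of cocaine over saline after a loess normalization within each array. Cocaine as the numerator is the likely reading of the design text and is not stated in the labels, so every sign below would turn if it were saline. Cocaine exposure and a high score go together in these groups and cannot be told apart.

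Transmitter leaves a nerve ending when a synaptic vesicle fuses with the membrane at the active zone. Rab3 proteins and the large scaffolds of the active zone bring vesicles to the release site, SNARE proteins pull the membranes together, complexins hold the complex in check, and synaptotagmins trigger fusion when calcium enters. NSF and its adaptors then take the SNARE complex apart, and dynamin and amphiphysin retrieve the membrane. In the globus pallidus, mRNA for these proteins lies mostly in the cell bodies of local neurons, because striatal neurons that send axons there keep most of their mRNA in the striatum.

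All 8 pallidal neuron markers had a listed feature, with estimated signals between 163 (Kcng4) and 4339 (Pvalb) scanner units. Markers of striatal neurons had signals in the same range and above, such as 6119 for Penk, so these signals do not check the dissection. The members' estimated signals ran from 79.7 (Stx1a) to 32043 (Rab3a) scanner units. Signals of different features are not levels of different genes. The dimmest members after Stx1a, by the average of their features, were Sv2b (91.7) and Syt2 (102). Over all single features the 10th percentile was 63.5 and the median 115, and single features of Sv2b went down to 62.8. Background in the ratios of these members was not measured.

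No member passed the test between cocaine and saline mice. At an adjusted p under 0.05 (limma, Benjamini-Hochberg over all genes), 0 of 30 members were called, against 0 of 18796 genes (0.0%). The smallest adjusted p of limma was 0.963, both over all genes and over the members. At an unadjusted p under 0.05 in limma 1 member was counted, Rab3b, which is 3.33% of the members against 2.67% of all genes (501 genes). It was lower in cocaine mice, as were 1.75% of all genes, while 0 of 30 members and 0.92% of all genes were higher. Single pairs moved this count: without pair 1 it was 0 members (0.851% of all genes), without pair 2 it was 1 (2.23%), without pair 3 it was 2 (5.12%) and without pair 4 it was 11 (13.4%), with no adjusted p of a member in limma under 0.21. No fitted difference of a member was larger than 0.17 on the log2 scale in either direction with all 4 pairs. Without pair 4 the members reached -0.35 (Rab3c) and 0.34 (Rims1), and in the ratios as deposited -0.47 (Cplx1). The 95% intervals were 0.28 to 0.65 wide, 29 of 30 held 0, and all 30 stayed within 0.5 of 0. In whole tissue, fewer cells of a type and less RNA per cell cannot be told apart.

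How far the members lay below 0 as a group depended on single pairs and on the scaling. Their fitted differences were below 0 for 20 of 30 (66.7%), against 53.9% of all genes, and their median was -0.023, against -0.0071 over all genes. This split moved with the scaling: 18 members were below 0 with a loess span of 0.7 or with arrays scaled to the same spread, 24 with each array centred on its median only (52.8% of all genes), and all 30 in the ratios as deposited (80.9% of all genes). The members' median estimated signal was 1364 scanner units, against 171 over all genes. Neither the centred nor the deposited ratios are adjusted for signal, and the part of signal in these counts was not tested. Without pair 1 the number below 0 was 16 of 30 (53.3%, against 52.9% of all genes), and without pair 4 also 16 of 30 (53.3%, against 54.5%). Without pair 2 it was 20 of 30 (66.7%, against 49.7% of all genes), and without pair 3 also 20 of 30 (66.7%, against 55.6%). The members' median stayed below 0 in these 4 fits, from -0.053 without pair 3 to -0.015 without pair 1. By pair, the median over the members was -0.11, 0.021, 0.036 and -0.044 in pairs 1 to 4, with 17, 14, 14 and 19 members below 0. The pairs thus lay on both sides of 0. By the average of their features, members below 0 in all 4 pairs numbered 3 (Syn1, Napb and Sncb), 10% of the members against 3.64% of all genes. Snap25 alone was above 0 in all 4 pairs by such an average, 3.33% of the members against 2.62% of all genes. Single features of Syn1, Napb and Snap25 had pairs on the other side of 0.

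**Figure D1:**
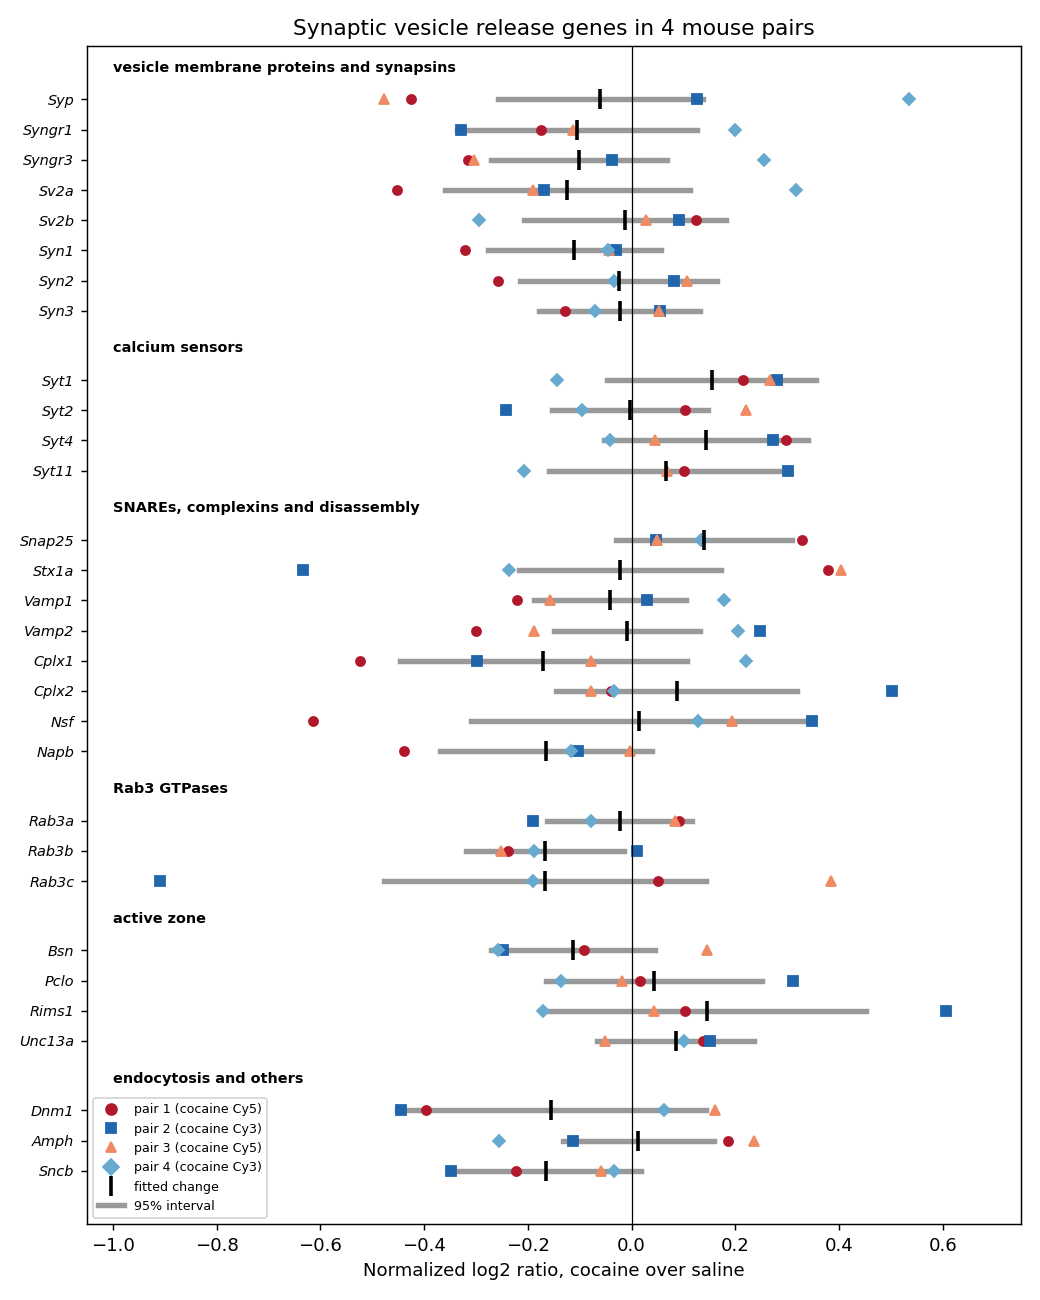
Normalized log2 ratio of cocaine over saline (horizontal axis) of the 30 measured members, grouped by role; circles, squares, triangles and diamonds are pairs 1 to 4, black bars the fitted difference and grey bars its 95% interval. The interval of Rab3b alone leaves out 0, and in most rows the 4 pairs lie on both sides of 0.

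Promoter sequences are shown for Syn1, the synapsin below 0 in all 4 pairs by the average of its features, and for Rab3b, the member with the smallest unadjusted p. They are RefSeq sequences of GRCm38.p6, 250 bases before to 50 bases after the annotated start, written 5′ to 3′ on the strand of the gene. The Syn1 window is chrX:20920869-20921168 on the minus strand, and the Rab3b window is chr4:108878820-108879119 on the plus strand. Capitals mark matches to 4 motifs searched on both strands, the cyclic AMP response element TGACGTCA, the GC box GGGCGG, the TATA box TATAAA and a strict form of the RE1 element, the site of the repressor REST.
Syn1: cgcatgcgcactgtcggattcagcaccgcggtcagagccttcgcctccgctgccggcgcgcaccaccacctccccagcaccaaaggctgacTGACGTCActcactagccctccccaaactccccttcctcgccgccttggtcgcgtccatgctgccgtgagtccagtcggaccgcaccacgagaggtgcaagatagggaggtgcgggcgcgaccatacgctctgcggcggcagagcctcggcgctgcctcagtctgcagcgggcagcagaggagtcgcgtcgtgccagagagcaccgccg
Rab3b: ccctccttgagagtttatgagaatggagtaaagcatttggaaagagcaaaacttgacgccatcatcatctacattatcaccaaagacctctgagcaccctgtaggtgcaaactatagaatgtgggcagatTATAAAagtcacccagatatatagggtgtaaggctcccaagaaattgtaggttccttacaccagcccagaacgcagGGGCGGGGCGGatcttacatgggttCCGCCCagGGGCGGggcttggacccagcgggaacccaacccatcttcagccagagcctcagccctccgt
Syn1 held 1 cyclic AMP response element, which 1.79% of 32817 promoters of this length hold, and it was 1 of 32 member promoters with it. Rab3b held 4 GC boxes, of which some overlap each other, and 1 match to the TATA box, about midway in the bases before the start. A match was counted wherever it lay in the window. The 32 member promoters belong to 25 members, some of which have several. A GC box was present in 20 of 32 member promoters and in 35.6% of all, a TATA box in 3 of 32 and in 13.6% of all, and the RE1 element in 0 of 32 and in 0.012% of all. These matches describe the letters of the windows and were not tested against the ratios. For the RE1 element only the strict form was counted, and near matches were not. The Syn1 window holds a stretch that differs from the strict form at 1 base. The count of 0 therefore does not show that Syn1 or another member lacks a REST site.

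Vesicle membrane proteins and synapsins had fitted differences below 0 in all 8 measured members, with a median of -0.081, where 53.9% of all genes were below 0. By pair, 7, 4, 5 and 4 of the 8 were below 0, with medians of -0.29, 0.013, -0.078 and 0.083 in pairs 1 to 4, so pair 1 was the lowest and pairs 2 and 4 showed no such split. None passed the test, and 7 of 8 were below 0 with arrays centred on their median only, and 5 to 7 of 8 without a single pair. Syn1, the synapsin that tethers vesicles to one another and to actin, had log2 ratios of -0.32, -0.030, -0.044 and -0.046 in pairs 1 to 4. All 4 pairs lay below 0 in the average of its features, with pair 1 far below the other 3. Neither feature alone was below 0 in every pair. The first was at 0.031 in pair 3, and the other at 0.092 in pair 2 and 0.0016 in pair 4. Its fitted difference was -0.11 ± 0.068 (SE, n = 4 pairs; limma, adjusted p = 0.963), and without pair 1 it was -0.041. Sv2a, the vesicle glycoprotein bound by the drug levetiracetam, had ratios of -0.45, -0.17, -0.19 and 0.32 in pairs 1 to 4. Pair 4 lay above 0 and the other 3 below, around a fitted difference of -0.12 ± 0.097 (SE, n = 4 pairs). Without pair 2 the Sv2a difference was -0.0022.

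Syp, synaptophysin, a major vesicle membrane protein, had ratios of -0.42, 0.13, -0.48 and 0.54 in pairs 1 to 4. Both pairs with cocaine in Cy5 were below 0 and both with cocaine in Cy3 above, so the ratio followed the dye. The fitted difference for treatment was -0.060 ± 0.081 (SE, n = 4 pairs), and the dye term of Syp was -0.39 (limma, adjusted p = 0.042). The other members of the group are the synaptogyrins Syngr1 (-0.10) and Syngr3 (-0.10), membrane proteins of the vesicle, Sv2b (-0.013), a relative of Sv2a, and the synapsins Syn2 (-0.025) and Syn3 (-0.023). Their ratios in single pairs ranged from -0.33 (Syngr1, pair 2) to 0.26 (Syngr3, pair 4), and each of these 5 genes had pairs on both sides of 0. Syngr3 was at -0.028 without pair 2 and at -0.17 without pair 4.

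Synaptotagmins, labelled calcium sensors in the figures, had fitted differences above 0 for 3 of 4 and a median of 0.10. With arrays centred on their median only, 2 of 4 were above 0, and in the ratios as deposited 0 of 4. Their pair medians were 0.16, 0.28, 0.14 and -0.12, and all 4 synaptotagmins lay below 0 in pair 4. Syt1, the fast calcium sensor of many forebrain synapses, had ratios of 0.22, 0.28, 0.27 and -0.14 in pairs 1 to 4. Pairs 1 to 3 lay close together above 0 and pair 4 below it. The fitted difference was 0.15 ± 0.083 (SE, n = 4 pairs; limma, adjusted p = 0.963), from 0.049 without pair 2 to 0.26 without pair 4. All 5 features of Syt1 had fitted differences above 0, from 0.059 to 0.31. Syt2, the fast sensor that predominates in hindbrain and in some inhibitory neurons, had ratios of 0.10, -0.24, 0.22 and -0.096 in pairs 1 to 4. The sign of Syt2 followed the dye orientation, and the fitted difference was -0.0034 ± 0.061 (SE, n = 4 pairs). Syt4, a synaptotagmin whose first calcium-binding domain has lost calcium binding, had ratios of 0.30, 0.27, 0.044 and -0.041 in pairs 1 to 4. Pairs 1 and 2 stood above pairs 3 and 4. Its fitted difference was 0.14 ± 0.080 (SE, n = 4 pairs; limma, adjusted p = 0.963), against 0.065 without pair 2. Syt11, a relative of Syt4, was at 0.066 with ratios from -0.21 to 0.30, and its 2 features disagreed in sign.

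SNAREs, complexins and the disassembly proteins showed no common direction, with 5 of 8 fitted differences below 0 and a median of -0.015. With each array centred on its median only, 7 of 8 were below 0, and in the ratios as deposited all 8. Snap25, the plasma membrane SNARE, had ratios of 0.33, 0.048, 0.048 and 0.13 in pairs 1 to 4. All 4 pairs lay above 0 in the average of its 3 features, with pair 1 the highest. Only the dimmest feature (signal 2220) was above 0 in every pair, with a fitted difference of 0.30. The brighter features (signals 25578 and 19718) each had a pair or more below 0, with fitted differences of 0.077 and 0.038. The fitted difference of the gene was 0.14 ± 0.069 (SE, n = 4 pairs; limma, adjusted p = 0.963), and those of its 3 features were all above 0. It was 0.070 without pair 1, and it turned to -0.070 with arrays centred on their median only and to -0.15 in the ratios as deposited. Stx1a, its plasma membrane partner syntaxin 1A, had ratios of 0.38, -0.63, 0.40 and -0.24 in pairs 1 to 4. The Cy5 pairs were high and the Cy3 pairs low, with a dye term of 0.41 (limma, adjusted p = 0.035). The fitted treatment difference of Stx1a was -0.022 ± 0.080 (SE, n = 4 pairs).

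Vamp1, a vesicle SNARE common in brainstem and spinal cord, had ratios of -0.22, 0.030, -0.16 and 0.18 in pairs 1 to 4. Vamp2, the vesicle SNARE that predominates in the forebrain, had ratios of -0.30, 0.25, -0.19 and 0.21 in pairs 1 to 4. In both genes the Cy5 pairs lay below 0 and the Cy3 pairs above, and the fitted differences were -0.042 ± 0.060 for Vamp1 and -0.0085 ± 0.058 for Vamp2 (SE, n = 4 pairs each). For Vamp2 this split held in the average of its 3 features and in the brightest, at -0.56, 0.83, -0.66 and 0.62 in pairs 1 to 4. Another feature had pair 3 at 0.010, and the dimmest had both Cy3 pairs below 0 (-0.22 and -0.12). Vamp1 was at -0.0051 without pair 2 and at -0.079 without pair 4, and at -0.35 in the ratios as deposited. Cplx1, a complexin common in inhibitory neurons, had ratios of -0.52, -0.30, -0.078 and 0.22 in pairs 1 to 4. Only pair 4 lay above 0. The fitted difference of -0.17 ± 0.11 (SE, n = 4 pairs; limma, adjusted p = 0.963) was the lowest of any member, and it ran from -0.30 without pair 4 to -0.040 without pair 2. Cplx2, the complexin common in excitatory neurons, had ratios of -0.040, 0.50, -0.079 and -0.034 in pairs 1 to 4. Pair 2 alone was above 0 in the average of the 4 Cplx2 features, which differed in sign in pairs 1, 3 and 4. Without pair 2 the fitted difference of 0.087 ± 0.095 (SE, n = 4 pairs) became -0.047.

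Napb, an adaptor that brings NSF to the SNARE complex, had ratios of -0.44, -0.10, -0.0035 and -0.12 in pairs 1 to 4. All 4 lay below 0, with pair 3 almost at 0, where 1 feature was at 0.035. Its fitted difference was -0.17 ± 0.084 (SE, n = 4 pairs; limma, adjusted p = 0.963), with both features below 0, and -0.057 without pair 1. Nsf, the ATPase that takes the complex apart, was at 0.014 with ratios from -0.61 in pair 1 to 0.35 in pair 2.

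Rab3 GTPases had fitted differences below 0 in 3 of 3 members, with a median of -0.17, in 2 of 3 with a loess span of 0.7, and in 1 of 3 without pair 2, where the median was 0.0046. Rab3b had ratios of -0.24, 0.011, -0.25 and -0.19 in pairs 1 to 4. In this average of 2 features, pairs 1, 3 and 4 lay close together below 0, and pair 2 was at about 0. The brighter feature (signal 4664) was at -0.27, 0.19, -0.36 and 0.031 in pairs 1 to 4. It was thus below 0 in both Cy5 pairs and above 0 in both Cy3 pairs. The dimmer feature (signal 631) was below 0 in every pair, from -0.41 to -0.15. The fitted difference of the gene was -0.17 ± 0.062 (SE, n = 4 pairs), with a 95% interval of -0.32 to -0.015, an unadjusted p of 0.036 and an adjusted p of 0.963 in limma. It lay between -0.22 and -0.12 without any single pair, and its 2 features were at -0.23 and -0.10. Rab3a, the main Rab3 of brain synapses, had ratios of 0.091, -0.19, 0.084 and -0.078 in pairs 1 to 4. The sign followed the dye, and the fitted difference was -0.023 ± 0.057 (SE, n = 4 pairs). Rab3c had the same fitted value as Rab3b to 2 decimals, -0.17, but a standard error of 0.13, with ratios from -0.91 in pair 2 to 0.38 in pair 3.

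Active zone proteins had fitted differences above 0 for 3 of 4, with a median of 0.064, while with arrays centred on their median only 2 of 4 were above 0, and in the ratios as deposited 0 of 4. Without pair 2 the group had 1 of 4 above 0 and a median of -0.058. Bsn, bassoon, a giant scaffold, had ratios of -0.091, -0.25, 0.14 and -0.26 in pairs 1 to 4. Pair 3 was above 0 and the others below, with a fitted difference of -0.11 ± 0.065 (SE, n = 4 pairs; limma, adjusted p = 0.963). Without pair 1 it was -0.054. Unc13a, which encodes the priming factor Munc13-1, had ratios of 0.14, 0.15, -0.050 and 0.10 in pairs 1 to 4. Pair 3 alone lay below 0, and the fitted difference was 0.085 ± 0.062 (SE, n = 4 pairs), from 0.038 without pair 1 to 0.13 without pair 3. Pclo, piccolo, the relative of bassoon, was at 0.043 with ratios from -0.14 to 0.31. Rims1, the scaffold that binds Rab3 and calcium channels, was at 0.15 ± 0.13 (SE, n = 4 pairs) with ratios from -0.17 to 0.61, and at -0.049 without pair 2.

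Among the endocytic proteins and synucleins, Dnm1, the dynamin that cuts vesicles off the membrane, had ratios of -0.40, -0.44, 0.16 and 0.062 in pairs 1 to 4. Pairs 1 and 2 lay below 0 and pairs 3 and 4 above. The fitted difference was -0.15 ± 0.12 (SE, n = 4 pairs), and it shrank to -0.015 without pair 1 and -0.028 without pair 2. Sncb, beta-synuclein, an abundant presynaptic protein, had ratios of -0.22, -0.35, -0.059 and -0.034 in pairs 1 to 4. All 4 lay below 0, with pairs 3 and 4 near it. Its fitted difference was -0.17 ± 0.075 (SE, n = 4 pairs; limma, adjusted p = 0.963), measured by 1 feature, and -0.087 without pair 2. Amph, amphiphysin, which brings dynamin to the neck of the vesicle, was at 0.013 with ratios from -0.26 to 0.24.

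Dye orientation moved some of the members' ratios. Dye terms passed an adjusted p under 0.05 (limma) for 2 of 30 members, Syp and Stx1a, which is 6.67% against 8.32% of all genes. Ratios of the Cy5 pairs and the Cy3 pairs did not overlap for 13 members, 43.3% against 57.6% of all genes. Over all genes, normalized ratios correlated at 0.50 between pairs 1 and 3 and at 0.51 between pairs 2 and 4, as a description across genes. Pairs of opposite orientation correlated at -0.36 to -0.67, and pairs of 1 orientation share their dye as well as the treatment. Over the 30 members alone, pairs 1 and 3 correlated at 0.51 and pairs 2 and 4 at 0.067, and pairs of opposite orientation at -0.68 to 0.042.

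**Figure D2:**
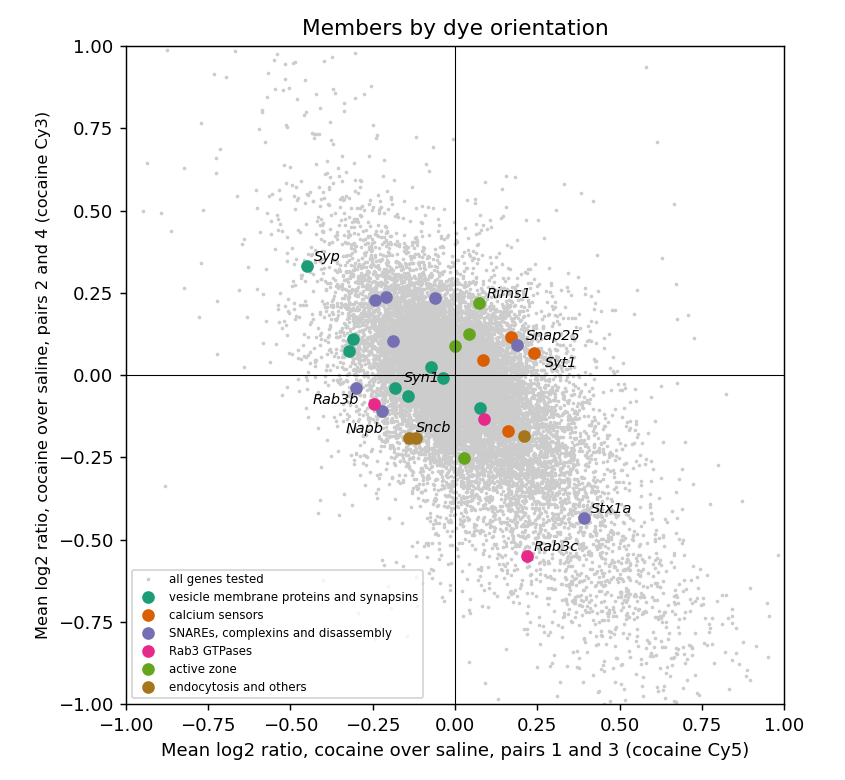
Mean log2 ratio of cocaine over saline of pairs 1 and 3, with cocaine in Cy5 (horizontal axis), against pairs 2 and 4, with cocaine in Cy3 (vertical axis); grey points are all genes tested, coloured points the members by role, and genes beyond 1 on either axis are not drawn. Syp (upper left) and Stx1a (lower right) have opposite signs in the 2 orientations, and Snap25 lies above 0 and Syn1, Rab3b, Napb and Sncb below 0 in both.

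Members with several features gave a check within the arrays. Of 19 such members, 12 had the same sign in all features, and the features of Cplx2, Pclo, Sv2b, Syn2, Syn3, Syt11 and Vamp2 disagreed. Fitted differences of the features were close to each other for Napb (-0.17 and -0.16) and Syn1 (-0.12 and -0.10), while the 3 of Snap25 ran from 0.038 to 0.30. In single pairs the features of Syn1 and of Napb were not all of the same sign. The remaining 11 members rested on 1 feature.

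**Figure D3:**
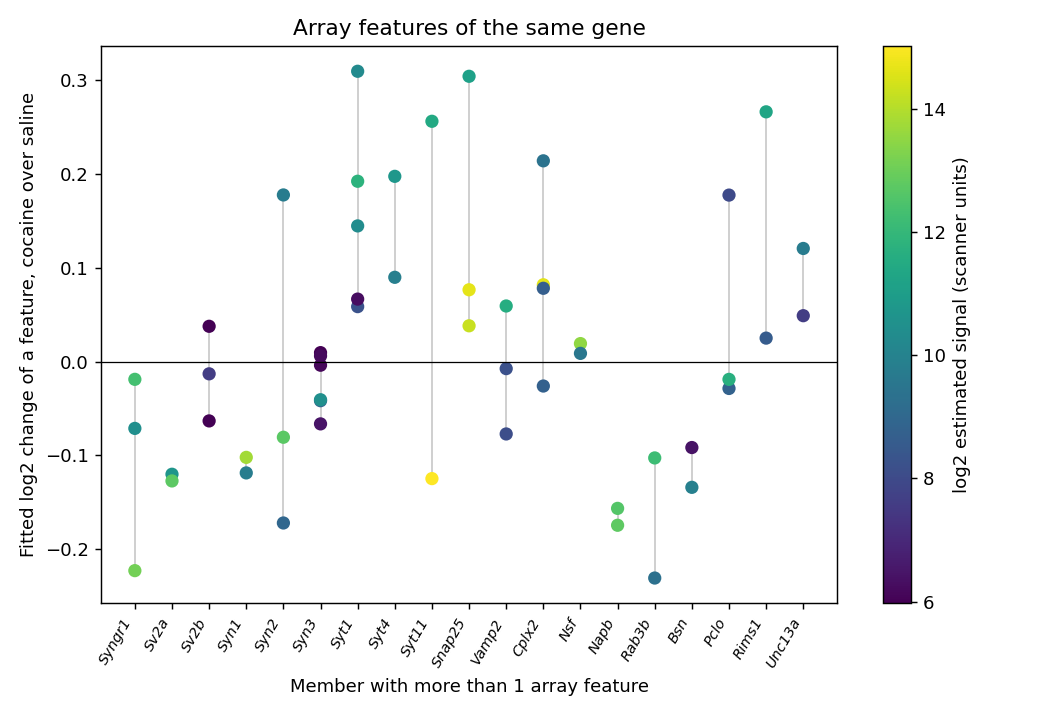
Fitted log2 difference of each array feature, cocaine over saline (vertical axis), for the 19 members with more than 1 feature (horizontal axis); colour gives the estimated signal of the feature on a log2 scale. Features of Napb, Sv2a and Syn1 lie close together, and those of Syt11 and Syn2 on both sides of 0.

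A wider list of 59 release genes outside the members had 54 with a feature. Of these 54, 31 were below 0 (57.4% against 53.9% of all genes) with a median of -0.015, 0 passed limma at an adjusted p under 0.05 and 0 had an unadjusted p under 0.05. Snap23, a SNARE found in many tissues, had ratios of 0.11, 0.16, 0.090 and 0.098 in pairs 1 to 4. These 4 pairs had an SD of 0.031, against 0.091 for the least variable member, Syn3, with a fitted difference of 0.11 ± 0.056 (SE, n = 4 pairs; limma, adjusted p = 0.963). Ppfia3, a liprin scaffold of the active zone, was at -0.27 ± 0.13 (SE, n = 4 pairs), with pair 2 at -0.91 and pair 3 at 0.19. Syt3 and Syt17, both synaptotagmins, were at -0.14 ± 0.077 and -0.15 ± 0.085 (SE, n = 4 pairs each), and their pairs split by dye.

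Markers of other cell types moved by pair as well. Of 13 general neuronal markers 10 were below 0, with a median of -0.052 and pair medians of 0.098, -0.077, -0.0089 and -0.087. The 8 pallidal markers had 4 below 0 and a median of -0.026. The 8 measured striatal projection neuron markers had a median of -0.016 and pair medians of -0.28, 0.38, -0.15 and 0.00018, so pairs 1 and 2 stood at opposite ends. Oligodendrocyte markers (6 measured) had pair medians of 0.49, -0.078, -0.070 and 0.0031, and astrocyte markers (6 measured) of 0.31, -0.069, 0.14 and 0.0019. Pair 1, where the members had their lowest median, had the highest medians of the oligodendrocyte, astrocyte, general neuronal and thalamic lists (thalamic 0.33). It also had the lowest medians of the striatal, pallidal and cortical lists (pallidal -0.11, cortical -0.087). Medians of the other lists were -0.012 for cortical, -0.018 for thalamic, -0.0089 for microglial and 0.096 for endothelial markers, with 5 of 5 endothelial markers above 0. The part of these markers in the members' values was not tested.

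**Figure D4:**
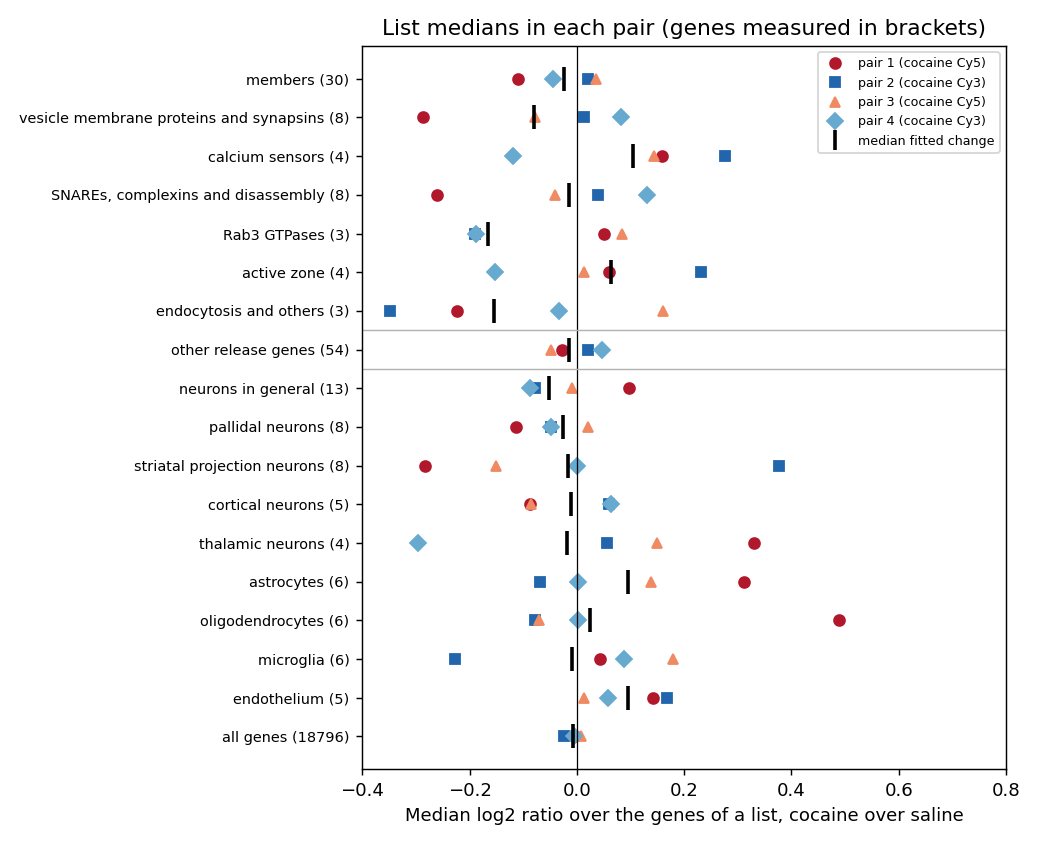
Median log2 ratio of cocaine over saline (horizontal axis) over the genes of each list in pairs 1 to 4, with black bars for the median fitted difference; the number of genes measured stands in brackets. Pair medians of the members lie between -0.11 and 0.036, and the oligodendrocyte list in pair 1 stands at 0.49.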

How the data were processed

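Total RNA of globus pallidus from 4 cocaine and 4 saline mice was labelled with Cy5 or Cy3 and hybridised as 4 pairs, per the labels. The deposited values are log2 ratios of 45220 features. Agilent Feature Extraction is named in the submitters' processing notes, while its settings are not given in the sources at hand. Column medians of 0.42, -0.58, 0.41 and -0.43 and the reversal with dye orientation (correlations of -0.85 to -0.95) show ratios turned to 1 treatment direction and not dye-normalized. Features took their gene from the platform annotation (33653 with 1 symbol, 56 with several, 11511 unlisted).

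The mean signal of a feature was estimated from pairs 1 and 3, whose values are ratios of signals in fixed steps for 99.9% and 99.8% of features. This gave a signal for 97.0% of features. Of 5000 simulated features 98.5% got a signal, and of these 58.2% were within 0.25 log2 of the truth and 94.1% within 1. The simulated signals were drawn under the assumptions of the estimate itself, so these shares do not check those assumptions. Ratios were normalized by loess within each array (limma 3.58.1, span 0.3, 4 iterations) and averaged by symbol. The fit of 18796 genes (lmFit, eBayes, two-sided, Benjamini-Hochberg) had a treatment and a dye term, with 2 residual and 4.01 prior degrees of freedom. The number of arrays limits the precision. The dye term takes up dye effects, and a standard error does not include the distance between the 2 dye orientations.

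The fit was checked on simulated data with 3 noise models. The first recovered only part of the changes put in, and a second with narrower noise was then tried. Noise drawn from limma's own prior was settled on after both had been seen. Recovery differed widely among the 3, so the simulation checks the code and does not show which size of change these arrays could find.

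All 31 members are named, with values in each pair for a fixed set of 15, for those with 1 direction in all pairs and for the 8 with the smallest unadjusted p. The members, lists and rules were chosen with earlier results of these data known. Alternatives changed the normalization, the dye term, the choice of features, the position on the array and the pairs used.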

Additional observations from a re-analysis of the deposited data

Results flagged for a closer look

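Among 48 series of 4 pair values checked (members and list medians), 4 held a value far from the other 3 by Dixon's criterion, which chance exceeds in about 1 in 20 series. Syn1 was at -0.32 in pair 1, with the other 3 between -0.046 and -0.030. Syt1 was at -0.14 in pair 4, against 0.22 to 0.28 in the others. Cplx2 was at 0.50 in pair 2, against -0.079 to -0.034. These are averages of 4 features, which ran from -0.46 to 0.51 in pair 1 and from -0.39 to 0.47 in pair 4. The median of the oligodendrocyte markers was 0.49 in pair 1, against -0.078 to 0.0031.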

How the results depend on the processing

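No member passed an adjusted p under 0.05 (limma) in any alternative. Genes at an unadjusted p under 0.05 numbered 501, against 70 in the ratios as deposited, 201 with arrays centred on the median only, 130 without a dye term and 331 of 11016 with dim features left out. Members at that threshold numbered 1, against 0, 2, 0 and 0 in these 4 alternatives, 0 with 1 feature per symbol and 0 with loess on the single most likely signal, an alternative chosen after seeing the data. The median over the members was -0.23 as deposited (all genes -0.085) and -0.16 with centring only.

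Leaving out each pair gave 160 to 2510 genes and 0 to 11 members at an unadjusted p under 0.05, 16 to 20 members below 0, members' medians of -0.053 to -0.015 and 0 to 2 genes at an adjusted p under 0.05. The 2510 genes (13.4%) and 11 members came without pair 4. Each of these fits leaves 1 array in 1 dye orientation. The cause was not tested.

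Of 388 member values recomputed, 52 changed sign, and 10 members kept 1 direction throughout (Syngr3, Sv2a, Syn1, Vamp1, Cplx1, Napb, Rab3b, Bsn, Dnm1 and Sncb). All 30 members were below 0 in the ratios as deposited, so only members below 0 after loess could keep 1 direction. The fit without a dye term has the same fitted differences by design, so its values could not change sign. As deposited, Syt1 was at -0.023, Syt4 -0.092, Syt11 -0.22, Snap25 -0.15, Cplx2 -0.12, Nsf -0.23, Pclo -0.14, Rims1 -0.059, Unc13a -0.062 and Amph -0.28. With centring only, Sv2b was at 0.031, Syt2 0.046, Syt4 -0.016, Syt11 -0.14, Snap25 -0.070, Stx1a 0.035, Cplx2 -0.041, Nsf -0.16, Pclo -0.060 and Amph -0.20. With a span of 0.7, Syt2 was at 0.0050 and Rab3a at 0.019, and with scaled arrays Syt2 at 0.015 and Stx1a at 0.015. With 1 feature per symbol, Syt11 was at -0.12, Vamp2 0.059 and Pclo -0.019. With the local median subtracted, Syt2 was at 0.0022 and Stx1a at 0.0060, and on the single most likely signal Syt2 at 0.0028.

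Without single pairs, the fitted differences that changed sign ranged from -0.16 to 0.042 for Syp, from -0.24 to 0.028 for Syngr1, from -0.11 to 0.083 for Sv2b, from -0.12 to 0.066 for Syn2, from -0.068 to 0.022 for Syn3, from -0.040 to 0.033 for Syt2, from -0.061 to 0.19 for Syt11, from -0.12 to 0.078 for Stx1a, from -0.037 to 0.020 for Vamp2, from -0.047 to 0.22 for Cplx2, from -0.19 to 0.22 for Nsf, from -0.051 to 0.0046 for Rab3a, from -0.35 to 0.014 for Rab3c, from -0.068 to 0.16 for Pclo, from -0.049 to 0.34 for Rims1, from -0.023 to 0.049 for Amph.

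Every value is a ratio within a mouse pair, so the fit has the pair as its unit throughout. Stx1a and Syt2 have no value with dim features left out. Background correction and slide were not tested.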
